A study of Mus musculus with 6 samples.

Results

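The Klra, Klrc and Klrd receptors are lectin-like surface proteins of natural killer cells, and 10 of their genes were followed here: Klra4, Klra7, Klra8, Klrc1, Klrc2, Klrd1, Klre1, Klri1, Klri2 and Klrk1. Members were all probes of the array whose platform symbol is one of these names, 21 of 45281 probes (10 of 19053 named genes). The 10 genes were chosen with the difference between the genotypes already known, so their differences are given as a description and no p-value is printed for a member. How many members passed the main fit is printed only beside the same share of all probes. For other settings such counts only describe how the processing changed them. RNA came from bone marrow cells of Fnip1 -/- mice and of wild-type (Wt) mice, sorted as B220+CD43+, a gate of early B-lineage cells that the labels call pre-B cells. Each genotype had 3 single-colour Illumina BeadChip arrays, called A, B and C here in the order of their columns. Age, strain, the change made to Fnip1 and whether the replicates are separate animals are not stated in the sources used here. The scanner columns of all 3 Fnip1 -/- arrays also carry the words LPAB - Yugioh, which the wild-type columns lack, and whatever they stand for cannot be told apart from genotype. Any p-value therefore measures the spread between these samples. With 3 arrays a group, their number limits the precision.

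These genes lie in the natural killer gene complex, on chromosome 6 of the mouse (GRCm38 gene table). Ly49 receptors, encoded by the Klra genes, form homodimers that bind class I molecules. Inhibitory receptors of the complex carry a tyrosine motif that recruits phosphatases, and activating ones signal through the adaptors DAP12 (Tyrobp) or DAP10 (Hcst). CD94, encoded by Klrd1, pairs with the NKG2 proteins of the Klrc genes and binds the class I-like molecule Qa-1 (H2-T23). The earliest part of the B220+CD43+ gate is known to hold some cells that are not committed to the B lineage, natural killer progenitors and plasmacytoid dendritic cells among them.

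The Ly49 genes are near copies of each other, which matters for reading array probes named for single members. Windows of 300 bases around the starts of Klra4, Klra8 and Klra7 are shown for this reason, and because the first of these genes had the largest differences of all members. They were taken from RefSeq (GRCm38.p6, minus strand) at chr6:130067222-130067521, chr6:130129849-130130148 and chr6:130233273-130233572, each the upstream-most window listed for its gene. Capitals mark the 1 stretch of at least 12 bases that all 3 windows share letter for letter.
Klra4: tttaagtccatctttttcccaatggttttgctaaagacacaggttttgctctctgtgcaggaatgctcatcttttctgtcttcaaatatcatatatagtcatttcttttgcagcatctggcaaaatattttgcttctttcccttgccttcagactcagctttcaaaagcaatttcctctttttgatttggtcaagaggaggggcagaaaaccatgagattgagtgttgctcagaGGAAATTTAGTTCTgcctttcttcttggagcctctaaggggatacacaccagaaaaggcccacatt
Klra8: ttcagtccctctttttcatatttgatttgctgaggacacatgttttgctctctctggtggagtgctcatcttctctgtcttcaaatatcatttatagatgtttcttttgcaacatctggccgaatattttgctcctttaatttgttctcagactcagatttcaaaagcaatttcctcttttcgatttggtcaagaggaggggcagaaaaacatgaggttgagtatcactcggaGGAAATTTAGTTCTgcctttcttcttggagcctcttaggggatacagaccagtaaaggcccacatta
Klra7: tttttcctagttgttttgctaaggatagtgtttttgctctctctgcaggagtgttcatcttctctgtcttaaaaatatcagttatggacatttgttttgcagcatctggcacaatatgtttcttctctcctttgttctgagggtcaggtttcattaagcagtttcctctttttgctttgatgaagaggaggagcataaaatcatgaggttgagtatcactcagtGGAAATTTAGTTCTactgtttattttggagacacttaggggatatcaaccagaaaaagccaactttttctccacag
The window of Klra4 was identical to that of Klra8 at 86.6% of 299 aligned bases and to that of Klra7 at 79.9% of 288. The windows of Klra7 and Klra8 were identical at 79.9% of 289. Another window listed for Klra7 was identical to the Klra4 window at only 57.7% and to the Klra8 window shown at 55.3%. Windows around gene starts do not show how alike the transcripts are where the probes lie. None of the 3 windows held the letters TGTGGT (the core bound by RUNX factors) or TCACAC (a T-box half-site) on either strand, while 16.8% and 14.5% of 32817 windows of the same length held them. Of the 10 genes, 8 had a window in the table. Among their 12 windows, some of which overlap, 5 held TGTGGT and 2 held TCACAC. Whether any factor binds at these letters was not tested. The sequences of the probes were not used here, so signal shared between related family members cannot be separated from that of the named gene.

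Facts of the series that touch these genes come first. Fnip1 signal was higher on the arrays labelled Fnip1 -/- (10.01 ± 0.04 against 9.06 ± 0.14, log2, SD, n = 3 each) by its brightest probe (limma adjusted p = 0.000665). The change made to Fnip1 is not stated, so this signal cannot check the labels. The libraries labelled Fnip1 -/- are called Fnip1-null, and higher or lower always means these libraries against the wild-type ones. Array A stood apart in both groups, and in opposite directions. Among the 15 member probes that passed the detection filter (detection p under 0.05 on at least 3 of 6 arrays), 9 were lowest on Fnip1-null array A and 13 were highest on wild-type array A. Those arrays also differed from the rest in the Y-linked Eif2s3y, which read 9.45 and 9.92 on them and at most 4.28 on the others, and in the X-linked Xist, which read 4.22 and 4.62 on them and at least 9.51 on the others, so each group held RNA of both sexes. The part of sex in the results was not tested, and values without these arrays are given for the members and for the genes called in each list.

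In the members as a whole, signal was mostly lower on the Fnip1-null arrays, most of all for Klra4. The groups overlapped for all detected probes of Klra7, Klrd1 and Klri1, the Klri1 means were higher, and Klrc2 was not detected. Of the 21 probes 12 were detected on all 6 arrays, 4 on some and 5 on none, and 9 of the 10 genes had a probe that passed the filter. Of the 15 probes that passed, 13 had a lower mean in Fnip1-null, where 49.1% of all 18172 tested probes did. Every Fnip1-null array lay below every wild-type array for 8 of them, against 16.4% of all tested probes. With limma 6 passed an adjusted p under 0.05 as lower, against 6.51% of all tested probes, and none as higher, against 7.7%. These counts describe how the members were chosen and are no evidence about them. Over all 21 probes the median log2 difference (Fnip1-null minus wild type) was -0.44, beside 0.0006 over all 45281 probes. With array A of both groups left out the median of the 21 probes was -0.05, and 2 were called lower, beside 669 of all tested probes. In bulk RNA, fewer cells of a type and less RNA per cell cannot be told apart.

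**Figure D1:**
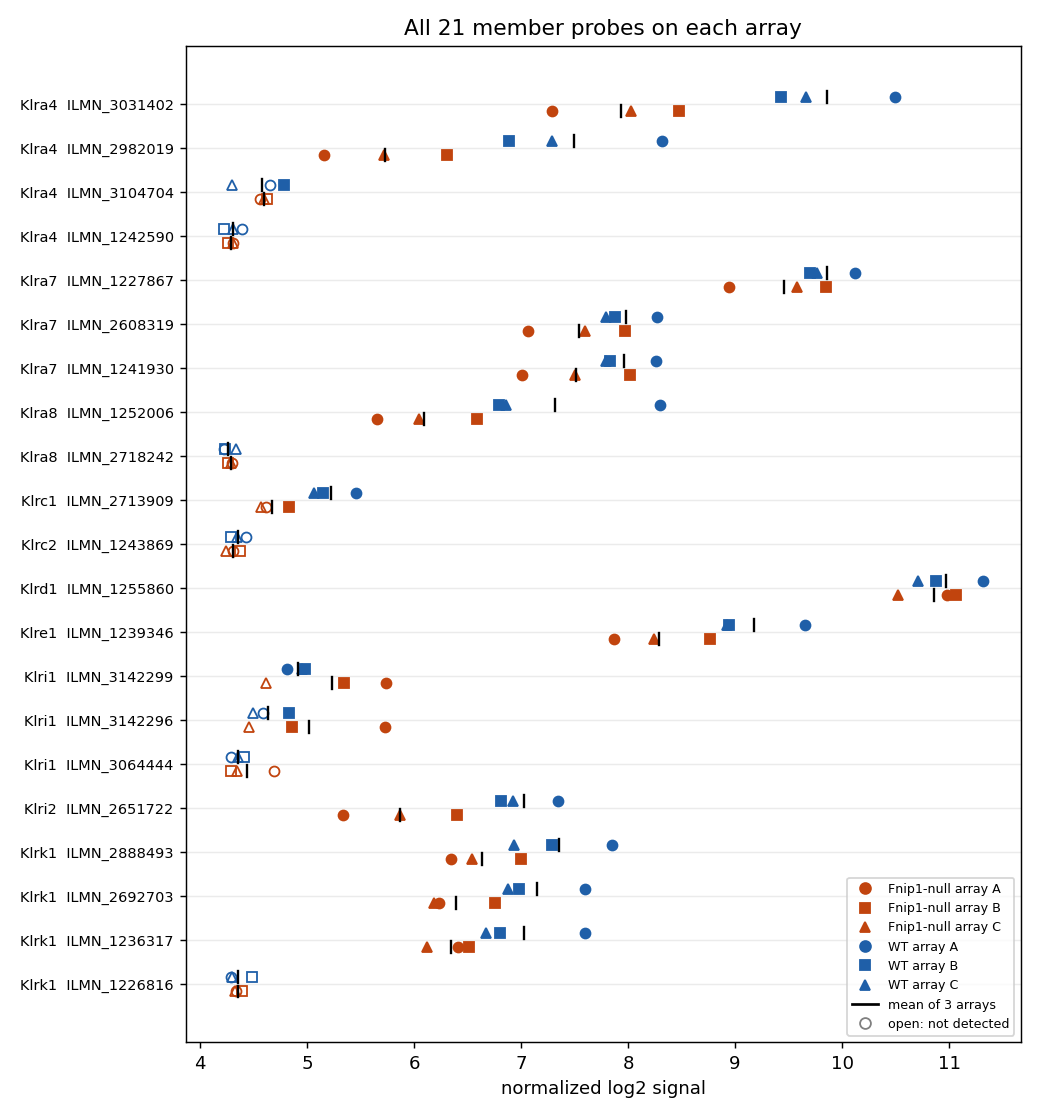
Normalized log2 signal (x axis) of all 21 member probes (rows) on each array, with Fnip1-null arrays in orange-red, wild-type arrays in blue, a black bar for the mean of 3 arrays and open symbols where the probe was not detected. The brightest Klra4 probe runs from 7.28 to 8.48 on the Fnip1-null arrays and from 9.43 to 10.50 on the wild-type arrays.

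Klra4 encodes Ly49D, an activating receptor that signals through DAP12, and it had the largest difference of the members. Its brightest probe (ILMN_3031402) read 7.28, 8.48 and 8.03 on Fnip1-null arrays A, B and C and 10.50, 9.43 and 9.66 on wild-type arrays A, B and C, all on the normalized log2 scale. The groups did not overlap, and the lowest and the highest value were those of the A arrays. The means were 7.93 ± 0.60 and 9.86 ± 0.56 (SD, n = 3 each), a 3.81-fold lower level in Fnip1-null. Probe ILMN_2982019 read 5.16, 6.31 and 5.72 against 8.32, 6.89 and 7.29, and was 3.41-fold lower. The order of the arrays was the same for both probes. Probe ILMN_3104704 was detected on 1 wild-type array and probe ILMN_1242590 on none, with means between 4.29 and 4.59 in both groups. Without the A arrays the difference of the bright probes was -1.29 and -1.08 on the log2 scale.

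Klra8 encodes Ly49H, the activating receptor known for recognising a viral protein of mouse cytomegalovirus. Its detected probe (ILMN_1252006) read 5.66, 6.59 and 6.04 on the Fnip1-null arrays and 8.30, 6.79 and 6.86 on the wild-type arrays. The groups were separate by 0.20 between Fnip1-null array B and wild-type array B, and wild-type array A was far above the rest. The mean was 2.33-fold lower in Fnip1-null (6.10 ± 0.47 against 7.32 ± 0.85, SD, n = 3 each), and the log2 difference went from -1.22 to -0.51 without the A arrays. The other Klra8 probe (ILMN_2718242) was not detected on any array. Across the 6 arrays the detected probe followed the bright Klra4 probes (Pearson r = 0.94 and 0.97), and how far they read the same transcripts was not tested.

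Klra7 encodes Ly49G, an inhibitory receptor for class I molecules, and its groups overlapped. All 3 of its probes were detected on all arrays. The brightest (ILMN_1227867) read 8.95, 9.85 and 9.58 on the Fnip1-null arrays and 10.12, 9.70 and 9.77 on the wild-type arrays. The lowest value was that of Fnip1-null array A, while Fnip1-null array B lay within the wild-type range. The log2 differences of the 3 probes were -0.40, -0.44 and -0.45, less than the SD of the Fnip1-null arrays (0.46, 0.46 and 0.50). Without the A arrays they were -0.02, -0.05 and -0.05, so the lower mean rested on those arrays. The inhibitory Klra7 and the activating Klra4 thus had different sizes of difference over the same 6 arrays, and the contrast between them was not tested because both were chosen from it.

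**Figure D2:**
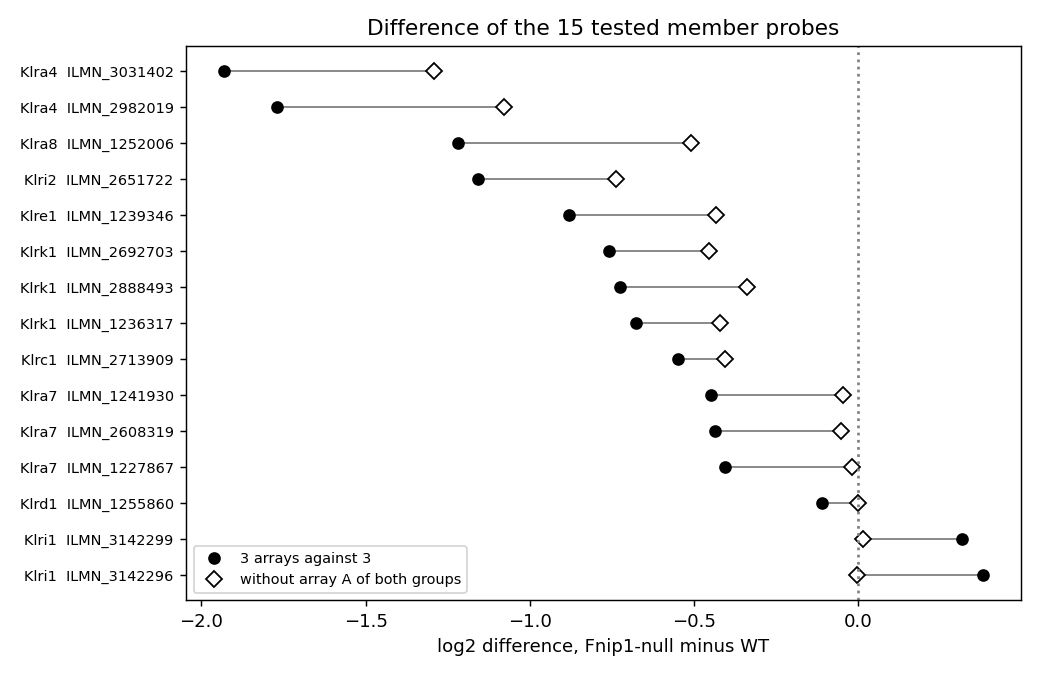
Log2 difference, Fnip1-null minus wild type (x axis), for the 15 member probes that passed the detection filter, over all 6 arrays (filled circles) and without array A of both groups (open diamonds). All 3 Klra7 probes move to between -0.05 and -0.02, while the bright Klra4 probes stay at -1.29 and -1.08.

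Klrd1 encodes CD94, the partner of the NKG2 proteins of the Klrc genes. It was the member with the least difference among those detected on all arrays. Its single probe (ILMN_1255860) read 10.98, 11.07 and 10.53 on the Fnip1-null arrays and 11.31, 10.88 and 10.71 on the wild-type arrays. The groups overlapped, with array C lowest in each. The difference was -0.11 on the log2 scale, under the SD of either group (0.29 and 0.31), and -0.001 without the A arrays. Klrc1 encodes NKG2A, the inhibitory partner of CD94. Its probe (ILMN_2713909) was dim, at 4.61, 4.83 and 4.57 against 5.45, 5.15 and 5.06, and was detected on 1 Fnip1-null array and all 3 wild-type arrays. Its log2 difference was -0.55, and -0.41 without the A arrays. It was at least 1.33-fold lower in Fnip1-null, a bound set by the lowest detected signal of each array, and it passed the filter through the wild-type group, where it was the higher. Klrc2, the activating NKG2C, had 1 probe, undetected throughout (between 4.25 and 4.43).

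Klrk1 encodes NKG2D, an activating receptor for stress-induced class I-like ligands that signals through DAP10. Of its 4 probes 3 were detected on all arrays and 1 (ILMN_1226816) on none. Probe ILMN_2692703 read 6.23, 6.76 and 6.19 on the Fnip1-null arrays and 7.60, 6.98 and 6.87 on the wild-type arrays, without overlap. It was 1.69-fold lower in Fnip1-null. Probe ILMN_1236317 was 1.60-fold lower, also without overlap, and probe ILMN_2888493 was 1.65-fold lower with Fnip1-null array B just above wild-type array C. The 3 detected probes thus gave one size of difference, and their log2 differences lay between -0.45 and -0.34 without the A arrays.

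Klre1 encodes a receptor chain that pairs, in rodents, with KLRI1 to form an inhibitory receptor or with KLRI2 to form an activating one. Its probe (ILMN_1239346) read 7.87, 8.76 and 8.24 on the Fnip1-null arrays and 9.65, 8.94 and 8.93 on the wild-type arrays, 1.84-fold lower without overlap. Klri2 (ILMN_2651722) read 5.34, 6.40 and 5.87 against 7.34, 6.82 and 6.93, 2.23-fold lower without overlap. Both kept the sign without the A arrays, at -0.43 and -0.74 on the log2 scale. Klri1 went the other way in its means. Its brightest probe (ILMN_3142299) read 5.74, 5.35 and 4.62 on the Fnip1-null arrays and 4.82, 4.98 and 4.96 on the wild-type arrays. The groups overlapped, with Fnip1-null array A highest and Fnip1-null array C lowest and not detected. The difference of 0.32 was below the SD of the Fnip1-null arrays (0.57), and it was 0.02 without the A arrays. Another Klri1 probe (ILMN_3142296) was at least 1.18-fold higher in Fnip1-null, detected there on 2 arrays and on 1 wild-type array. That rested on Fnip1-null array A (5.73, against 4.86 and 4.46 on B and C), and the log2 difference went from 0.38 to -0.003 without the A arrays. The last Klri1 probe (ILMN_3064444) was not detected.

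As a description of how the members varied together, the 12 tested probes other than those of Klrd1 and Klri1 correlated at 0.64 to 0.996 over the 6 arrays, which include the difference between the groups. Klrd1 correlated with them at 0.32 to 0.77, and the Klri1 probes with all other members at -0.81 to 0.33. The genes outside the set whose pattern was most like the mean of the 15 member probes were Chmp6 (r = 0.992), Evl (0.991), Prr3 (0.988), F2r (0.984), Tm2d2 (0.983), Hnrnpa0 (0.978), Hmox2 (0.977) and Zfp97 (0.976), over 6 arrays and all tested genes. The log2 differences of these 8 genes ran from -0.58 for F2r to -0.14 for Prr3.

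Genes of the same complex that are not members differed in both directions. Of 19 tested genes of this list 4 rose and 1 fell by limma (adjusted p under 0.05), where 7.86% of all 9679 tested genes rose and 5.25% fell, and 14 did not pass. The list's median log2 difference was -0.05, beside 0.01 over all tested genes. Those that rose were the lectin genes Clec2m (log2 difference 2.13, SE 0.26, adjusted p = 0.000894), Clec2i (0.89, SE 0.13, adjusted p = 0.00269) and Clec2d, a ligand of NKR-P1 receptors (1.01, SE 0.20, adjusted p = 0.0108), and the activation marker Cd69 (1.20, SE 0.20, adjusted p = 0.00446). Klrb1f, an NKR-P1 receptor gene, fell by 1.06 (SE 0.19, adjusted p = 0.00679). Without the A arrays all 5 kept their calls by limma, with Clec2m at 2.19, Clec2i at 0.94, Clec2d at 0.81, Cd69 at 1.20 and Klrb1f at -0.87. Klrb1c, which encodes the NK1.1 antigen, stood at -0.60 (SE 0.18, adjusted p = 0.0609). Klrb1c did not pass under 15 of 17 alternatives, among them median centring (limma adjusted p = 0.0955) and no detection filter (0.206). It passed only with array weights (-0.56, adjusted p = 0.0484) and without wild-type array C (-0.77, adjusted p = 0.0319). Its log2 difference ran from -0.77 to -0.33 over the 17. Klrg1, an inhibitory receptor of mature natural killer cells, stood at -0.14 (adjusted p = 0.513) and was detected on 5 of 6 arrays. None of the other tested Klra genes passed: Klra3 stood at -0.61, Klra9 at -0.55 (detected on 2 of 3 Fnip1-null arrays, so at least 1.39-fold lower), Klra10 at -0.49, Klra17 at 0.02 and Klra1 at 0.42. Gabarapl1, the neighbour of Klre1 with no part in these receptors, stood at 0.10 (adjusted p = 0.644).

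**Figure D3:**
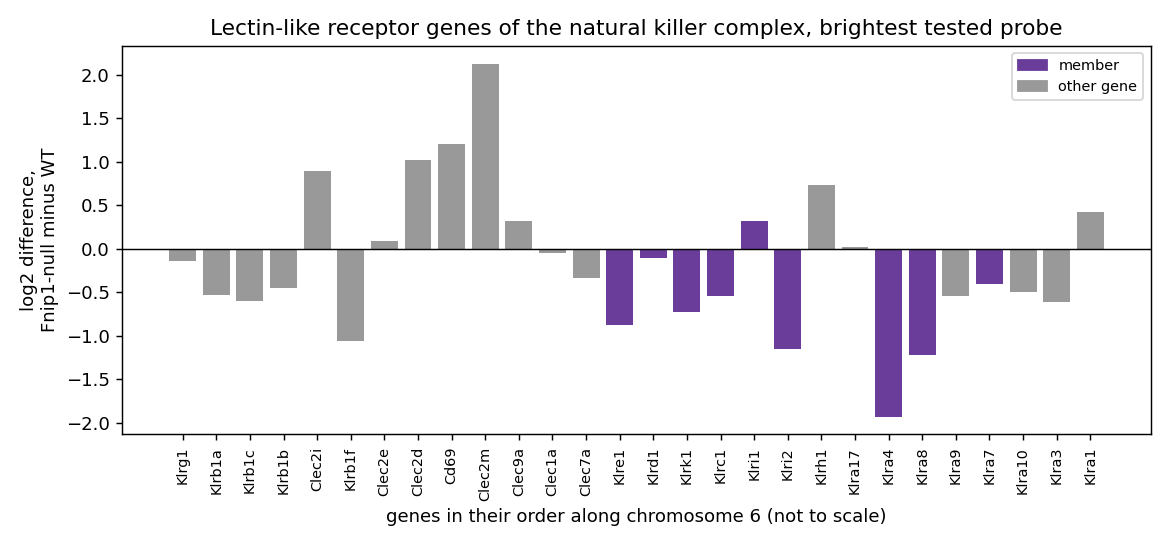
Log2 difference, Fnip1-null minus wild type (y axis), of the brightest tested probe of each lectin-like gene, in the genes' order along chromosome 6 (x axis, not to scale), with members in purple and other genes in grey. The bars run from -1.93 for Klra4 to 2.13 for Clec2m, and genes with bars in opposite directions are neighbours in several places.

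The adaptors these receptors signal through did not pass. Tyrobp (DAP12) stood at 0.09 (95% interval of the fold 0.77 to 1.48, adjusted p = 0.826) and Hcst (DAP10) at -0.08 (0.68 to 1.31, adjusted p = 0.856), and myeloid and dendritic cells also express Tyrobp. Counting the brightest probe of each gene, 3 of 18 tested adaptors and signalling partners rose and 0 fell by limma. Of all tested genes 7.86% rose and 5.25% fell. At an unadjusted p under 0.05 (limma) 4 of the 18 were higher and 2 lower, and the list's median was -0.04. Dimmer probes of 2 of these genes were called lower while the brightest did not pass. They were Crk (ILMN_1221405 at -0.63, adjusted p = 0.00768, the brightest at 0.28) and Lat2 (ILMN_2505319 at -0.34, adjusted p = 0.0451, detected on no Fnip1-null array, the brightest at 0.01). Lat, an adaptor of T cells, natural killer cells and early B-lineage cells, had a level 5.34-fold higher (95% interval 4.28 to 6.66, adjusted p = 1.06e-05), which passed as a rise. Vav3, an exchange factor, rose by 0.58 (adjusted p = 0.0362) and the phosphatase gene Inpp5d by 0.43 (adjusted p = 0.0293). Without the A arrays Lat stood at 2.63 (adjusted p = 0.000191), Inpp5d at 0.41 (0.108) and Vav3 at 0.45 (0.194). The call of Lat was kept under all 17 alternatives, that of Inpp5d under 9 and that of Vav3 under 8. Of 8 tested ligand and class I assembly genes 0 rose and 0 fell by limma, and 0 had an unadjusted p under 0.05. H2-T23, the Qa-1 gene, stood at 0.08 (95% interval of the fold 0.81 to 1.38, adjusted p = 0.8) and B2m, the light chain of class I molecules, at 0.21 (0.94 to 1.43, adjusted p = 0.339).

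Natural killer markers outside the complex were set beside the members. No count of natural killer cells in the sort was used here. Of 18 tested markers 4 fell and 0 rose by limma, where 5.25% of all 9679 tested genes fell and 7.86% rose, and 14 did not pass. At an unadjusted p under 0.05 (limma) 8 were lower and 0 higher. The median was -0.44 beside 0.01 over all genes. A lower mean was seen for 15 of the 18. The others were Cd160 (0.40), Prf1 by its brightest probe (0.01) and Il18rap (0.004). Samd3 fell by 1.33 (SE 0.20, adjusted p = 0.00253), and Id2, a regulator required for natural killer and other innate lymphoid cells, fell by 0.97 (SE 0.13, adjusted p = 0.00171). The granzyme gene Gzmm fell by 0.85 (adjusted p = 0.00916). Eomes, a T-box factor of natural killer cells, was at least 1.72-fold lower (adjusted p = 0.0215), detected on 2 of 3 Fnip1-null arrays. Its call was lost without Fnip1-null array A (adjusted p = 0.0656), without array A of both groups (0.0724) and with 2 other settings, and over all 17 alternatives its adjusted p ran from 0.0131 to 0.114. Without the A arrays Samd3 stood at -1.02, Id2 at -0.88 and Gzmm at -0.63, and these 3 kept their calls. A dimmer probe of Prf1, the perforin gene (ILMN_1228333), was called lower at -0.67 (adjusted p = 0.0272), where its brightest did not pass. The number that fell was 7 without wild-type array C. A shorter list of 10 natural killer markers also includes Klrb1c, a gene of the complex. Of these 10, 9 had a probe, 6 were detected on all arrays, and Ncr1 and Gzmb were not detected on any. The summed linear signal of this list ran from 4103 to 5091 on the Fnip1-null arrays and from 4548 to 6854 on the wild-type arrays, with overlap. On the B and C arrays alone it read 5091 and 4103 in Fnip1-null and 5359 and 4548 in wild type. Most of this sum came from Ccl5, Nkg7 and Prf1 (wild-type log2 means 11.26, 10.71 and 10.01), none of which passed by its brightest probe. The next brightest, Klrb1c, had a wild-type mean of 6.89. The part of natural killer markers in the members' differences was not tested.

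**Figure D4:**
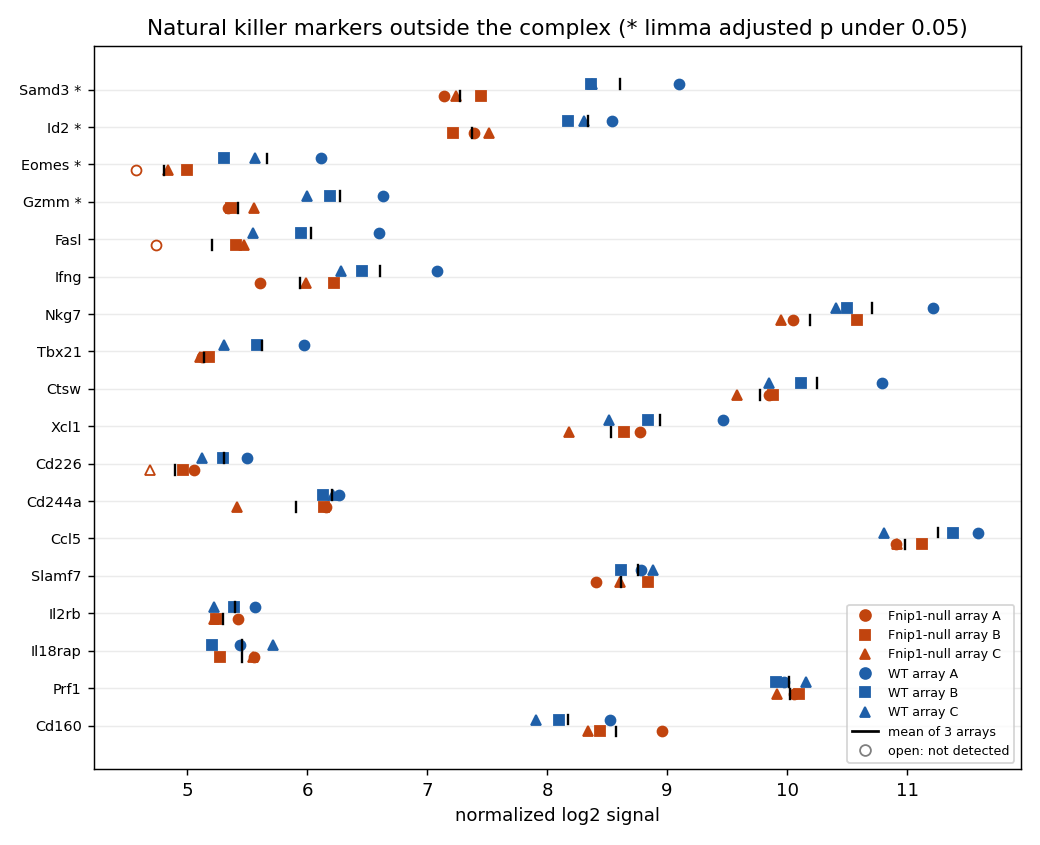
Normalized log2 signal (x axis) of the 18 tested natural killer markers outside the complex (rows, ordered by difference) on each array, with Fnip1-null in orange-red, wild type in blue, a black bar for the mean of 3 arrays and open symbols where a marker was not detected. Samd3, Id2, Eomes and Gzmm, marked with a star, have all Fnip1-null arrays below all wild-type arrays.

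Markers of other cells that the sort could hold are given beside the members. These are linear sums, in which the brightest probes weigh most. The sum of 10 T cell markers was higher in Fnip1-null (2538 to 3269 against 2094 to 2391), also on the B and C arrays alone (2771 and 2538 against 2391 and 2094). Its brightest marker was Cd8b1 (log2 means 10.54 in Fnip1-null and 9.95 in wild type). By limma Cd3e and Cd8b1 were called higher and Thy1 lower, while Cd3d, Cd3g, Cd4, Cd6 and Cd28 did not pass. Cd5 and Cd8a were not detected. The 9 plasmacytoid dendritic markers with a probe overlapped in their sums (26448 to 34815 against 24522 to 31805), with Ccr9 not detected. The B-lineage sums overlapped (28255 to 32440 against 26504 to 32266), with Pax5 not detected. Of 10 B-lineage markers 3 were called lower by limma and 0 higher. These were Rag1 (4.17-fold lower, adjusted p = 7.38e-06), Ebf1 (1.44-fold, 0.0147) and Cd79b (1.41-fold, 0.0304). The 4 innate lymphoid markers with a probe were dim and overlapped (113 to 133 against 127 to 138). Neutrophil markers summed to 38020 on Fnip1-null array A, the array lowest for most members. They summed to 23652 on wild-type array A, the array highest for most members, and to between 9938 and 21101 on the B and C arrays. Their part in the members' differences was not tested.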

How the data were processed

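The deposited scanner table has 2 columns per array for 6 arrays, per the file headers: the intensity of a probe and its detection p-value. No normalization is recorded for it. A table processed by the authors was taken as log2 from its range, and how they made it is not stated. The submitters' processing notes name affy without a version. Scanner columns carry the genotype, a number of unstated meaning and no replicate number.

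Intensities were background-corrected from the detection p-values with an offset of 16, quantile normalized and put on a log2 scale (neqc, limma 3.58.1, R 4.3.3). Probes detected (p under 0.05) on 3 or more arrays were fitted with lmFit and eBayes, with Benjamini-Hochberg adjustment over 18172 probes, and calls at an adjusted p under 0.05. The fit was tested on simulated data. A gene is represented by its brightest tested probe. Where the dimmer group was not detected on every array, the fold is a bound against the lowest detected signal of each array. Probes were named by the platform annotation of 2016, updated to GRCm38.p6 symbols. The depth of an array experiment is its signal: between 17442 and 18294 probes were detected per array.

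Members, lists and the naming rule were chosen with earlier results of these data known. Named genes were all members, up to 6 called genes per list, a fixed set and the 8 genes most like the members. Eif2s3y and Xist were chosen after their values were seen. Alternatives changed the background correction, normalization, filter, table, weights and arrays used.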

Additional observations from a re-analysis of the deposited data

How the results depend on the processing

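Leaving out 1 array in turn moved the number of probes called higher from 1400 to between 788 and 1019 and lower from 1183 to between 691 and 940, that of adaptors and partners higher from 3 to between 1 and 2, that of other complex genes lower from 1 to between 1 and 2, and that of natural killer markers lower from 4 to between 3 and 7. The median difference over the 21 member probes went from -0.44 to between -0.62 and -0.20, and member probes called lower from 6 to between 2 (without wild-type array A) and 6, with 3 without Fnip1-null array A or C or wild-type array B. Without Fnip1-null array C 1 member probe was called higher. Without array A of both groups, chosen after seeing the data, 730 probes were higher and 669 lower, 1 adaptor or partner was higher, and the median of the 21 member probes was -0.052. With no detection filter 1 adaptor or partner and 0 other complex genes were lower. In that setting 0 member probes were called, beside 1041 of all probes higher and 867 lower. The series matrix gave 1 adaptor or partner higher and 1 lower, and 3 member probes lower. Over all 17 alternatives 728 to 1682 of all probes were called higher and 669 to 1415 lower. None of the member counts here is evidence about the members. Array weights gave 2 other complex genes lower. With the replicate number of the titles as a replicate block, possible only in the series matrix, 728 probes were higher and 669 lower, 1 adaptor or partner was higher and 0 member probes were called. Deviations of same-numbered samples correlated at 0.17, -0.003 and 0.23, and those of differently numbered samples at -0.24 to 0.07. Whether the numbers mark pairs is not stated, and these values do not settle it. The cause of these changes was not tested, beyond fewer arrays in some fits and more probes in others. No slide number was given, so the slide was not used as a block. Without a detection filter the calls of Vav3, Klrb1f (adjusted p = 0.052), Clec2d (0.0729), Gzmm (0.0534) and Eomes (0.111) were lost. None of the calls named in the text reversed.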
